A study of Homo sapiens with 24 samples.

Results

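The 41 genes described here are a list of mitotic genes, namely cyclins and kinases of the G2/M phase, kinetochore and spindle checkpoint genes, kinesins and condensins, taken by gene name from the 18915 genes of the count table. All 41 were in the table and all 41 were among the 12685 genes that passed the filter on low counts. By role they were 6 cyclins and kinases of mitotic entry (*CCNA2*, *CCNB1*, *CCNB2*, *CDK1*, *AURKA*, *PLK1*), 7 genes of the checkpoint and of anaphase control (*BUB1*, *BUB1B*, *BUB3*, *MAD2L1*, *TTK*, *CDC20*, *PTTG1*), 7 of the centromere, kinetochore and chromosomal passenger complex (*CENPA*, *CENPE*, *CENPF*, *NDC80*, *NUF2*, *AURKB*, *BIRC5*), 7 kinesins (*KIF11*, *KIF14*, *KIF20A*, *KIF20B*, *KIF23*, *KIF2C*, *KIF4A*), 6 other spindle microtubule proteins (*TPX2*, *NUSAP1*, *PRC1*, *ASPM*, *HMMR*, *DLGAP5*), 2 of cytokinesis (*ANLN*, *ECT2*) and 6 of chromosome structure and surface (*TOP2A*, *SMC2*, *SMC4*, *NCAPG*, *NCAPH*, *MKI67*).

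The libraries came from HepG2, a human hepatoma cell line, exposed for 10 h to compounds that act on protein turnover and on the eIF2α–ATF4 stress pathway. The 6 groups of 4 biological replicates received DMSO as vehicle, ISRIB at 50 nM, nelfinavir at 20 µM, bortezomib at 50 nM, bortezomib at 50 nM with nelfinavir at 20 µM, or bortezomib at 50 nM with ISRIB at 50 nM. Bortezomib inhibits the proteasome, nelfinavir is an HIV protease inhibitor used here to raise eIF2α–ATF4 signaling, and ISRIB makes cells insensitive to phosphorylated eIF2α. RNA was sequenced from the 3′ end (QuantSeq), so that a transcript gives about the same number of tags whatever its length, and total counts ran from 5154533 to 6943164 per library. All 8 hepatocyte and hepatoma markers were detected in DMSO at 120.5 CPM (*TTR*) to 3323 CPM (*ALB*), where CPM is the count relative to the TMM-scaled library size, while *CD68* was the only marker of leukocytes, fibroblasts or endothelium that passed the filter, at 3.84 CPM. A single cell line was studied, and p-values rest on the spread between replicates, estimated over all 6 groups together.

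Mitotic entry is driven by cyclin B with CDK1, and the spindle checkpoint then holds chromosome separation back until every kinetochore is attached to microtubules. Once the checkpoint is satisfied, CDC20 activates the anaphase-promoting complex, which marks cyclin B and securin (the product of *PTTG1*) for destruction by the proteasome, the target of bortezomib. Transcripts of this program accumulate in G2 and M phase, when the MuvB complex with B-MYB and FOXM1 activates promoters that carry a CHR element and boxes for the factor NF-Y, promoters that the related DREAM complex keeps silent in resting cells.

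Most promoters of the members held the letters of these elements. RefSeq promoters (GRCh38.p14, from 250 bases before to 50 after the start) were found for 36 of the 41 genes, with none for *AURKA*, *BIRC5*, *BUB3*, *TPX2* and *TTK*. Both strands were searched for the CHR (TTTGAA or TTCGAA), for the NF-Y box (CCAAT), for the E2F site (TTTCCCGC, TTTCGCGC, TTTGCCGC or TTTGGCGC) and for the ATF4 element (TGATGCAAT), with matches allowed to overlap. A CHR was present in 28 of 36 promoters (77.8%, against 16.6% of all 27305 promoters), an NF-Y box in 27 (75%, against 35.7%), both in 21 (58.3%, against 6.58%) and at least 2 NF-Y boxes in 16 (44.4%, against 11.3%). Within 100 bases of the start a CHR was found in 25 (69.4%, against 7.43%). The E2F site was present in 3 (8.33%, against 3.33%) and the ATF4 element in 0 of 36 (0.264% of all promoters). A match is a description of the letters and does not show binding. The 7 windows of 100 bases below end at the base before the start and read 5′ to 3′ along the gene, with CHR and NF-Y matches on either strand in capitals. *CDC20*, *CCNB2*, *PLK1*, *MKI67* and *HMMR* are shown because the elements stand close together in genes of different roles that bortezomib lowered. *PRC1* is shown because it held both elements and did not pass the test with bortezomib. *KIF20A* is shown because it had the largest fall of the 41 and neither of the CHR forms searched. Other forms of the CHR were not searched, so a promoter without a match may still hold one.
CDC20: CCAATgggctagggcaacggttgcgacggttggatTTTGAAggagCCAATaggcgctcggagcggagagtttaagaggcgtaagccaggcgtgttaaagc
CCNB2: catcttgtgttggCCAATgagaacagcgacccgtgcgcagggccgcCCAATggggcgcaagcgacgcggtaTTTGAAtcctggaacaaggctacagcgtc
PLK1: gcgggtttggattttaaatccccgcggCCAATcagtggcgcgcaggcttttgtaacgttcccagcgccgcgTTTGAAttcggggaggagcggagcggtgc
MKI67: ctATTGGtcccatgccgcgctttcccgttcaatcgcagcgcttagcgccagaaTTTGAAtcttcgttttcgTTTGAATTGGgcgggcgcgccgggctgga
HMMR: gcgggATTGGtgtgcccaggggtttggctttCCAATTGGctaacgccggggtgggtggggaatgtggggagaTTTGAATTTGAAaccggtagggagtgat
PRC1: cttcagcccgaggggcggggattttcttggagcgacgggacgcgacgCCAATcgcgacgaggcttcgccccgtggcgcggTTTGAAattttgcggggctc
KIF20A: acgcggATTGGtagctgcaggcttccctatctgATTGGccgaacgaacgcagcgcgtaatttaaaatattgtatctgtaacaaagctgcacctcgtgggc
In GRCh38.p14 these windows lie at chr1:43358881-43358980, plus strand (*CDC20*), chr15:59105046-59105145, plus strand (*CCNB2*), chr16:23678789-23678888, plus strand (*PLK1*), chr10:128126424-128126523, minus strand (*MKI67*), chr5:163460532-163460631, plus strand (*HMMR*), chr15:90994536-90994635, minus strand (*PRC1*) and chr5:138179012-138179111, plus strand (*KIF20A*). In *CDC20*, *CCNB2*, *PLK1* and *PRC1* an NF-Y box lies upstream of the CHR, in *HMMR* a pair of CHR matches follows directly on each other, and in *MKI67* the CHR nearest to the start runs into an NF-Y box on the other strand.

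Across the 6 groups the summed level of the 41 mitotic genes formed a falling series, in which abundant genes such as *TOP2A* weigh most. Single genes need not follow it, and at the step from DMSO to ISRIB 0 members were called, with a median log2 fold change of −0.09. The 41 genes summed to 6985 ± 152 CPM in DMSO, 6426 ± 203 CPM in ISRIB and 5305 ± 403 CPM in nelfinavir (SD, n = 4 libraries a group). With bortezomib the sum was 4087 ± 89.5 CPM alone, 3571 ± 102 CPM when nelfinavir was added and 3405 ± 186 CPM when ISRIB was added. The groups did not overlap in this sum except for the last pair, whose libraries lay at 3497 to 3719 CPM and at 3127 to 3512 CPM. By unscaled counts the members held 0.844% ± 0.0322 of all counts in DMSO and 0.350% ± 0.0101 in bortezomib. Gene by gene, the highest group mean was in DMSO for 30 members, in ISRIB for 10 and in bortezomib with nelfinavir for 1 (*BUB3*), and the lowest was in bortezomib with ISRIB for 18, in bortezomib with nelfinavir for 18, in bortezomib for 3 and in nelfinavir for 2. In RNA from whole cultures, fewer cells in G2 and mitosis and less RNA of these genes per cell cannot be told apart.

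**Figure D1:**
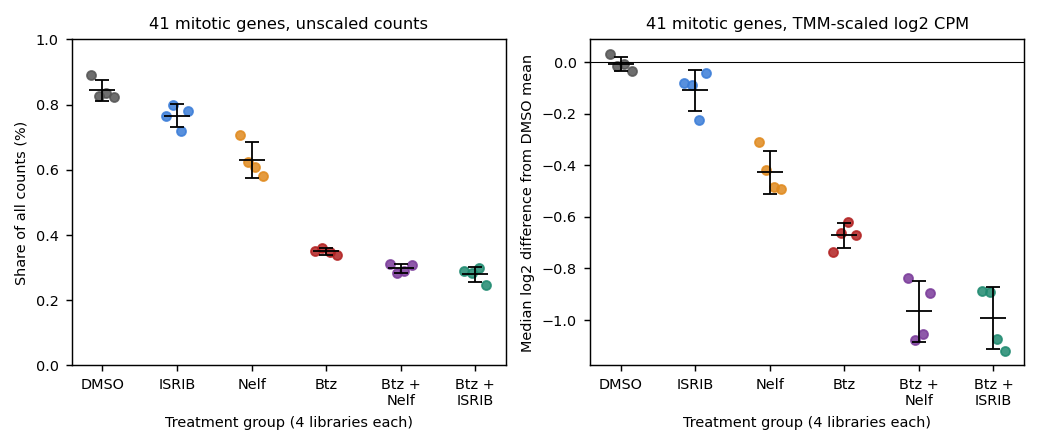
Share of all counts held by the 41 mitotic genes (left, %) and the median log2 difference of the 41 genes from their DMSO means on TMM-scaled CPM (right), with a point per library and bars for the mean ± SD of 4 libraries. The share falls from 0.844% in DMSO to 0.279% in bortezomib with ISRIB, and the median difference from −0.01 to −0.99.

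Library composition moved with bortezomib. Mitochondrially encoded genes held 21.5% ± 1.32 of the counts in DMSO and 33.8% ± 1.20 in bortezomib, and 14454.5 ± 56.4 and 13013 ± 116 genes were detected. The TMM factors were 1.21 ± 0.0225 and 0.856 ± 0.0114, and with scaling by library totals alone the median log2 fold change of all genes was −0.50 for bortezomib against DMSO and −0.48 against nelfinavir. The 8 hepatocyte and hepatoma markers summed to 12973 to 14472 CPM in DMSO, 12898 to 14331 CPM in nelfinavir and 10140 to 10747 CPM in bortezomib, and 4 of the 8 were lower and 0 higher with bortezomib than with DMSO, with none of their mean levels at 0. The part of these shifts in the member values was not tested. With TMM and the mitochondrially encoded genes removed, the same number of members passed the test for bortezomib against DMSO, 36.

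The first comparison asks what proteasome inhibition did to mitotic transcripts. By edgeR's quasi-likelihood test at a Benjamini-Hochberg adjusted p under 0.05 over the 12685 genes, bortezomib lowered 36 of the 41 members and raised 0, where 25.8% of all genes tested were lower and 27.6% higher. All 41 log2 fold changes were negative, with a median of −0.70 against 0.00 over all genes, and 9 members fell more than 2-fold. Of the 12685 genes tested, 1551 were called and fell more than 2-fold. For all 36 the 4 bortezomib libraries lay below the 4 DMSO libraries. The 36 were picked by the test on these same libraries, and the share of all genes that separate in this way was not counted. DESeq2 and the unadjusted p-values also placed 0 members higher. Every gene of mitotic entry, of the kinetochore group, of cytokinesis and of chromosome structure fell, as did 4 of 7 checkpoint genes, 6 of 7 kinesins and 5 of 6 spindle microtubule proteins.

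*KIF20A* (ENSG00000112984, chr5:137514408-137523412 in GRCh37), the kinesin that brings the passenger complex to the central spindle, was at 39.5, 40.9, 41.8 and 47.1 CPM in DMSO and at 10.9, 14.2, 5.70 and 12.5 CPM in bortezomib. It fell by 74.3%, or −1.96 (SE 0.21, adjusted p = 1.68e-09) on the log2 scale, the largest change among the members. Its 3′ end overlaps *CDC23* on the other strand, and without a stated strand setting reads of the pair cannot be told apart. *TOP2A* (ENSG00000131747, chr17:38544777-38574148 in GRCh37), the topoisomerase that untangles sister chromatids, was the most abundant member by tags, at 1584, 1492, 1426 and 1427 CPM in DMSO and 519, 542, 482 and 502 CPM in bortezomib. Its fall of 65.5% (−1.54, SE 0.09, adjusted p = 9.40e-16 on the log2 scale) had the smallest p of the 41, and a wide gap separated the groups.

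Among genes of mitotic entry, *CCNA2* (ENSG00000145386, chr4:122737599-122745038 in GRCh37) encodes the cyclin that acts from S phase to early mitosis. It was at 85.4, 87.3, 88.5 and 82.5 CPM in DMSO and at 35.5, 40.7, 41.6 and 35.0 CPM in bortezomib, groups that lay far apart, and fell by 55.5% (−1.17, SE 0.11, adjusted p = 1.97e-10); its 3′ end overlaps *EXOSC9* on the other strand. Its partner kinase *CDK1* fell by 51.7% (−1.05, SE 0.12), and the mitotic cyclins *CCNB2* and *CCNB1* had values of −0.56 (SE 0.11) and −0.35 (SE 0.11). The kinases *PLK1*, which acts at centrosomes and kinetochores and whose 3′ end overlaps *ERN2*, and *AURKA*, which matures the spindle poles, were at −0.77 (SE 0.13) and −0.63 (SE 0.10).

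*CDC20* (ENSG00000117399, chr1:43824652-43828874 in GRCh37), the activator of the anaphase-promoting complex, was at 106, 123, 90.7 and 97.8 CPM in DMSO and 42.6, 34.9, 52.8 and 45.6 CPM in bortezomib, without overlap. It fell by 57.9% (−1.25, SE 0.12, adjusted p = 1.48e-10). Securin, *PTTG1*, fell by 45.5% (−0.88, SE 0.10), the checkpoint kinase *BUB1* by 49.2% (−0.98, SE 0.15) and *MAD2L1*, a subunit of the checkpoint complex that binds CDC20, by 47.3% (−0.92, SE 0.18). The other checkpoint genes did not pass the test. *BUB1B*, whose product BubR1 binds CDC20 in the same complex, had a log2 fold change of −0.20 (95% interval −0.48 to 0.08), the adaptor *BUB3* −0.16 (−0.35 to 0.03) and the kinase *TTK*, the member with the fewest counts, −0.19 (−0.63 to 0.24). *BUB1B* shares its 3′ end with the readthrough transcript *BUB1B-PAK6*.

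In the kinetochore group the smallest p was that of *BIRC5* (ENSG00000089685, chr17:76210267-76221717 in GRCh37), which encodes survivin, a subunit of the passenger complex. It was at 169, 174, 185 and 185 CPM in DMSO and 71.9, 60.7, 64.8 and 77.4 CPM in bortezomib, a fall of 61.4% (−1.37, SE 0.09, adjusted p = 3.01e-14) with no overlap. *NDC80*, the microtubule coupler of the outer kinetochore, fell by 64.1% (−1.48, SE 0.13), and its dimer partner *NUF2* by 40.2% (−0.74, SE 0.14). The kinetochore motor *CENPE* (−0.83, SE 0.11), the passenger kinase *AURKB* (−0.71, SE 0.14), the outer kinetochore protein *CENPF* (−0.58, SE 0.08) and the centromeric histone *CENPA* (−0.56, SE 0.20) also fell.

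*HMMR* (ENSG00000072571, chr5:162887209-162918947 in GRCh37), a protein of spindle poles and microtubules, had the smallest p of its group, with 111, 109, 113 and 106 CPM in DMSO and 58.4, 64.8, 42.9 and 61.4 CPM in bortezomib (−0.95, SE 0.12, adjusted p = 5.80e-08). The spindle stabilizer *DLGAP5* fell by 57.6% (−1.24, SE 0.17), the pole protein *ASPM* by 35.3%, *NUSAP1* by 24.2% and the AURKA activator *TPX2* by 19.4%. *PRC1*, the crosslinker of the central spindle, was at 157, 166, 151 and 143 CPM in DMSO and 137, 149.7, 174 and 153 CPM in bortezomib, and these values overlapped (−0.01, 95% interval −0.20 to 0.19). The 3′ ends of *NUSAP1* and *PRC1* coincide with those of other gene models, so their counts may hold reads of these. Among the kinesins, *KIF11*, which pushes the spindle poles apart, fell by 39.9%, *KIF20B* by 35.7%, the chromokinesin *KIF4A* by 28%, *KIF23* of the central spindle by 26.1% and the depolymerase *KIF2C* by 23.2%. *KIF2C* lost its call when DMSO replicate 3 was left out (adjusted p = 0.0587), and *KIF14*, a kinesin of cytokinesis, did not pass the test (−0.21, 95% interval −0.48 to 0.05).

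*ANLN* (ENSG00000011426, chr7:36429430-36493400 in GRCh37) encodes anillin, the scaffold of the contractile ring. It was at 111, 113, 107 and 103 CPM in DMSO and 74.2, 72.3, 59.6 and 50.8 CPM in bortezomib, with no overlap and a fall of 40.8% (−0.76, SE 0.13, adjusted p = 1.56e-05). *ECT2*, the RhoA activator of cytokinesis, fell by 34.6%. Of the condensin genes, *NCAPH* fell by 50.8%, *SMC2* by 43.1%, *NCAPG* by 31.4% and *SMC4* by 22.4%, and *MKI67*, which coats mitotic chromosomes, fell by 38.4%. The log2 fold changes of the condensin genes ran from −1.02 (SE 0.17) for *NCAPH* to −0.37 (SE 0.09) for *SMC4*. The 3′ ends of *NCAPG* and *SMC4* overlap *LCORL* and *TRIM59* on the other strand.

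**Figure D2:**
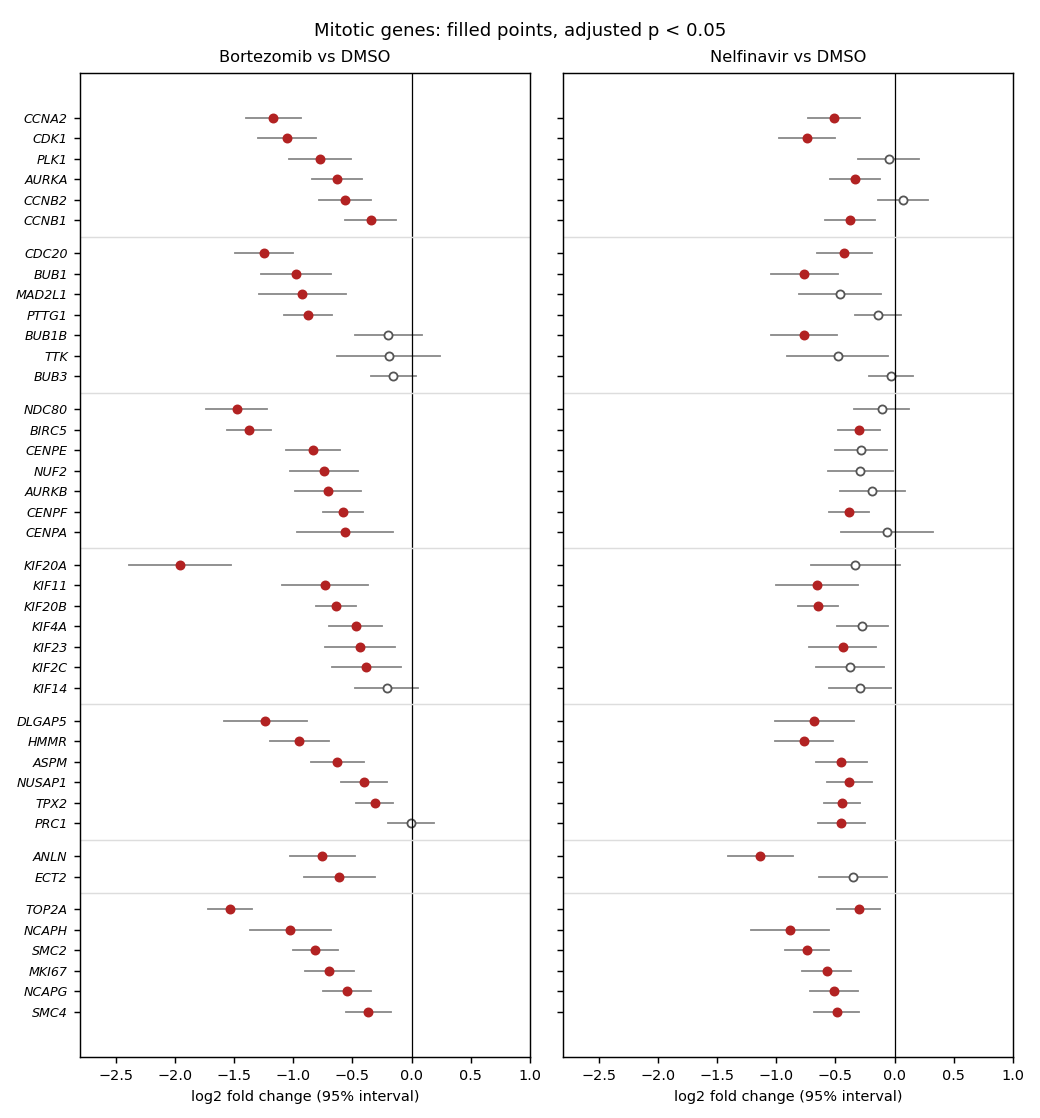
Log2 fold changes with 95% intervals of the 41 mitotic genes for bortezomib (left) and nelfinavir (right) against the shared DMSO libraries, grouped by role and ordered within a role by the bortezomib value, with filled points at an adjusted p under 0.05. Bortezomib values run from −1.96 (*KIF20A*) to −0.01 (*PRC1*) and nelfinavir values from −1.13 (*ANLN*) to 0.07 (*CCNB2*).

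Members with and without a match to the CHR forms searched (TTTGAA or TTCGAA) had overlapping ranges of bortezomib values, −1.54 to −0.01 and −1.96 to −0.35. The median log2 fold change was −0.67 over the 28 members with such a match and −0.85 over the 8 without. Since other forms were not searched, the 8 cannot be taken as genes that lack a CHR. For nelfinavir the medians were −0.45 and −0.35.

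The next comparison asks what nelfinavir did without a proteasome inhibitor. Nelfinavir lowered 25 of the 41 members and raised 0, against 8.84% of all genes lower and 10.4% higher. The number lower was 29 by DESeq2 and 34 when only the DMSO and nelfinavir libraries were fitted. The values below are from the fit of all groups. The median log2 fold change was −0.43 against 0.01 over all genes, and 1 member, *ANLN*, fell more than 2-fold, beside 180 of the 12685 genes tested. DESeq2 and the unadjusted p-values gave 0 members higher. All 6 genes of chromosome structure and all 6 of the spindle microtubule proteins fell, with 4 of 6 of mitotic entry, 3 of 7 of the checkpoint, 3 of 7 kinesins, 2 of 7 of the kinetochore group and 1 of 2 of cytokinesis.

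*ANLN* was at 49.1, 58.6, 43.6 and 46.5 CPM in nelfinavir, all below the DMSO values given above (−1.13, SE 0.13, adjusted p = 6.72e-08). *HMMR* was at 73.1, 73.7, 60.9 and 50.9 CPM, also below every DMSO library (−0.77, SE 0.12, adjusted p = 9.55e-06). *CDK1* was at 80.8, 77.8, 65.9 and 70.6 CPM in DMSO and 48.6, 45.0, 38.2 and 44.9 CPM in nelfinavir (−0.74, SE 0.12, adjusted p = 1.12e-05). The groups were apart for this kinase, while the cyclin *CCNB2* (0.07, 95% interval −0.14 to 0.28) and the kinase *PLK1* (−0.05, −0.31 to 0.20) did not pass the test. *BUB1B* was at 46.8, 43.1, 46.7 and 40.1 CPM in DMSO and 30.6, 26.8, 23.7 and 22.6 CPM in nelfinavir, where no library reached the lowest DMSO value (−0.77, SE 0.14, adjusted p = 8.85e-05). *KIF20B*, a kinesin of late mitosis, was at 277, 284, 292 and 274 CPM in DMSO and 197, 175, 181 and 168 CPM in nelfinavir (−0.65, SE 0.08, adjusted p = 2.67e-07).

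*SMC2*, the core ATPase of both condensins, was at 223, 223, 216 and 219 CPM in DMSO and 149, 142, 123 and 113 CPM in nelfinavir (−0.74, SE 0.09, adjusted p = 1.72e-07), and *CENPF* at 574, 517, 602 and 556 CPM and 493, 419.7, 418 and 395 CPM (−0.38, SE 0.08, adjusted p = 9.33e-04). Neither gene overlapped between the groups. The other condensin members fell too, *NCAPH* by 45.8%, *NCAPG* by 29.9% and *SMC4* by 28.7%. *TOP2A*, *BIRC5* and *CDC20*, which had the smallest p of their groups with bortezomib, fell by 19%, 18.9% and 25.6%, and *KIF20A* (−0.33, 95% interval −0.71 to 0.05) and *NDC80* (−0.11, −0.34 to 0.12) did not pass the test. The calls of *AURKA*, *BIRC5*, *KIF23* and *TOP2A* were lost when certain libraries were left out, with adjusted p-values of up to 0.0778, 0.0664, 0.0737 and 0.0722; the libraries were nelfinavir replicate 4 for each of them, DMSO replicate 1 for all but *BIRC5*, nelfinavir replicate 3 for *AURKA* and DMSO replicate 4 for *KIF23*.

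Set against each other directly, the agents differed for 20 of the 41 members, about the share found over all genes. Not called were 21 members and 6505 of the 12685 genes tested. With bortezomib 17 of the 41 were lower than with nelfinavir and 3 were higher, with a median of −0.20, whereas with library totals alone 37 were lower and 0 higher, the median was −0.67 and 8 members changed sign. Over all genes 23.6% were lower and 25.2% higher, and 6 of the 8 hepatic markers were lower. The median was −0.13 without nelfinavir replicate 1. Of the 20 calls 13 held under every alternative and left-out library. Besides the 3 higher members, those lost were *CDK1* (adjusted p up to 0.101, without bortezomib replicate 2 or nelfinavir replicate 1, 2 or 4), *AURKA* (0.0893, without nelfinavir replicate 1), *MAD2L1* (up to 0.0957, without nelfinavir replicate 1 or 4 or bortezomib replicate 2 or 3) and *CENPA* (up to 0.117, without nelfinavir replicate 2 or 4 or bortezomib replicate 2 or 3). *KIF20A* (−1.63, SE 0.21, adjusted p = 1.06e-07), *NDC80* (−1.37, SE 0.13, adjusted p = 8.10e-11), *TOP2A* (−1.23, SE 0.09, adjusted p = 3.39e-13) and *BIRC5* (−1.07, SE 0.09, adjusted p = 1.89e-11) were more than 2-fold lower with bortezomib. So were 1294 of the 12685 genes tested. *KIF20A* was at 32.1, 32.5, 31.0 and 38.9 CPM in nelfinavir, *TOP2A* at 1363, 1131, 1242 and 1068 CPM and *BIRC5* at 143, 159, 144 and 132 CPM, each above the highest bortezomib library.

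*CCNB2* was at 68.4, 70.2, 76.7 and 70.4 CPM in nelfinavir and 47.7, 42.5, 50.3 and 43.4 CPM in bortezomib (−0.64, SE 0.11, adjusted p = 7.66e-06). *PTTG1* was at 170.3, 158, 164 and 143 CPM and 105, 94.6, 91.7 and 89.7 CPM (−0.74, SE 0.10, adjusted p = 1.89e-07). Both genes were apart between the agents. In the other direction *BUB1B* was at 32.9, 39.2, 42.7 and 39.3 CPM in bortezomib, above all nelfinavir libraries (0.57, SE 0.14, adjusted p = 0.00118), and *PRC1* was at 126, 115, 107 and 103 CPM in nelfinavir, below all bortezomib libraries (0.44, SE 0.10, adjusted p = 2.97e-04). *ANLN* overlapped between the agents (0.38, SE 0.14, adjusted p = 0.0222), and its call was lost without any of nelfinavir replicates 3 and 4 and bortezomib replicates 1 and 2 (adjusted p up to 0.14). With library totals alone none of these 3 was called, at adjusted p-values of 0.591 (*BUB1B*), 0.805 (*PRC1*) and 0.581 (*ANLN*), and *PRC1* and *ANLN* had values of −0.03 and −0.09.

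Genes of G1 and S phase are given for comparison. Of 38 G1/S and replication genes, which encode G1 cyclins, the factor E2F1, origin licensing, replication and nucleotide synthesis proteins, chromatin assembly factors and other S phase proteins, 37 were tested, and all 37 fell with nelfinavir (median −1.15, 25 of them more than 2-fold), while with bortezomib 21 fell and 4 rose (median −0.48). Compared directly, 27 of the 37 were higher and 2 lower with bortezomib than with nelfinavir (median 0.72), and with library totals alone 18 were higher and 6 lower (median 0.25). The helicase subunit *MCM4*, for example, had log2 fold changes of −1.61 (SE 0.10) with nelfinavir and −0.80 (SE 0.09) with bortezomib, the licensing factor *CDC6* −1.46 (SE 0.10) and −0.05 (SE 0.10), and the flap endonuclease *FEN1* −1.07 (SE 0.09) and −1.08 (SE 0.09). Their promoters held the E2F site in 56.2% and the CHR in 6.25% of 32.

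**Figure D3:**
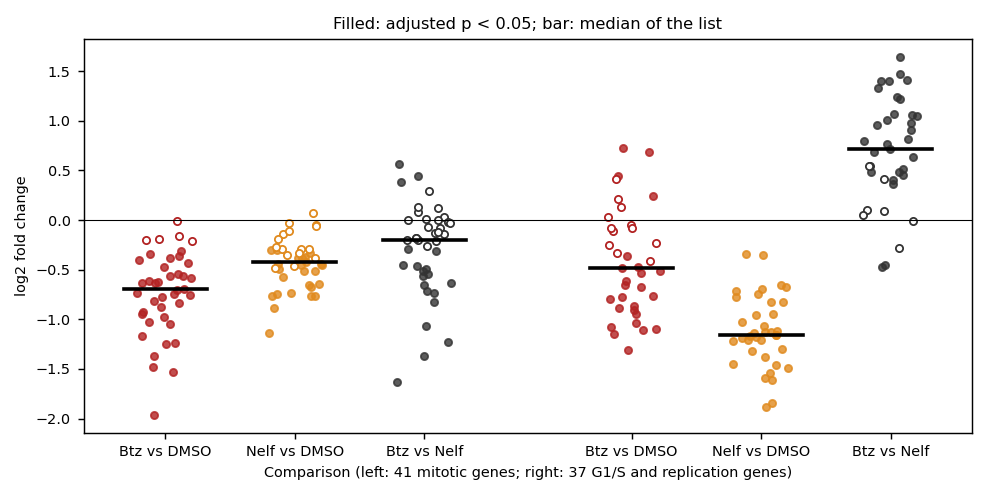
Log2 fold changes of the 41 mitotic genes (left) and of 37 G1/S and replication genes (right) for bortezomib against DMSO, nelfinavir against DMSO and bortezomib against nelfinavir, with a point per gene, filled at an adjusted p under 0.05, and bars at the medians. The medians are −0.70, −0.43 and −0.20 for the mitotic genes and −0.48, −1.15 and 0.72 for the G1/S and replication genes.

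ISRIB alone gave no call. By edgeR 0 of the 41 members were lower and 0 higher, as were 0% and 0% of all genes, and the median of the members was −0.09. At an unadjusted p under 0.05 there were 8 members, all lower, beside 703 of all genes (5.54%). DESeq2 called 3 lower, *CENPF* (−0.40, SE 0.08 in edgeR), *CENPE* (−0.47, SE 0.11) and *ASPM* (−0.44, SE 0.11). The same 3 were called without a filter, and *HMMR*, *ANLN* and *MKI67* were added when only the DMSO and ISRIB libraries were fitted. DESeq2 gave an adjusted p without a call for 25 other members and no adjusted p for the rest. *CENPF* was at 418, 419, 399 and 472 CPM with ISRIB and *CENPE* at 153, 139.6, 115 and 161 CPM against 205, 191, 204 and 187 CPM in DMSO. For both genes the ISRIB libraries lay below the DMSO libraries, as they did for *NUF2*, *ASPM*, *HMMR*, *DLGAP5*, *ANLN*, *SMC2* and *MKI67*. For *AURKB* they lay above, and for the remaining members they overlapped. The share of all genes that separate in this way was not counted.

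Adding nelfinavir to bortezomib lowered some mitotic transcripts further. Against bortezomib alone 19 members were lower and 1 was higher, where 13.4% of all genes were lower and 15.6% higher, with a median of −0.30 for the members and −0.02 for all genes. This count moved with single libraries. Without bortezomib replicate 2 it was 10 and without bortezomib replicate 3 it was 11, and over the 8 libraries left out in turn it ran from 10 to 14. The median was −0.17 without co-treated replicate 2, and the number higher was 2 without bortezomib replicate 1 or 3 or co-treated replicate 3, and 3 without co-treated replicate 4. Other measures moved in the same comparison. Of the 8 hepatic markers 6 were lower and 0 higher, with a median of −0.33, and they summed to 6679 to 8598 CPM in the co-treatment against 10140 to 10747 CPM in bortezomib, while the mitochondrially encoded share was 27.2% ± 2.26 against 33.8% ± 1.20. On the second principal component of all genes co-treated replicate 3 lay at −51.3 and the other co-treated libraries at −34.0 to −21.6, and without that library 14 members were lower, with a median of −0.26. The part of these measures in the result was not tested. Of the 20 calls, 7 held under every alternative and left-out library, and the calls of *CCNA2*, *CCNB2*, *CDK1*, *AURKA*, *CENPF*, *NUF2*, *KIF11*, *KIF14*, *TPX2*, *PRC1*, *DLGAP5*, *ANLN* and *MKI67* did not. By role 5 of 6 genes of mitotic entry, 4 of 6 spindle microtubule proteins, 3 of 7 kinetochore genes, 3 of 7 kinesins, 2 of 7 checkpoint genes, 1 of 2 of cytokinesis and 1 of 6 of chromosome structure were lower.

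*CCNB1* was at 102, 107, 112 and 107 CPM in bortezomib and 75.9, 61.1, 44.2 and 56.3 CPM with nelfinavir added (−0.85, SE 0.11, adjusted p = 4.48e-07). *BUB1B* was at 22.6, 18.6, 20.4 and 13.5 CPM with nelfinavir added, below every bortezomib library (−1.04, SE 0.15, adjusted p = 2.73e-06), the only member lowered more than 2-fold by the addition. Of the 12685 genes tested, 473 were. *HMMR* was at 34.9, 27.9, 26.1 and 26.7 CPM (−0.98, SE 0.13, adjusted p = 8.57e-07), again without overlap. *CENPE* was at 101, 114, 135 and 92.1 CPM in bortezomib and 85.6, 81.1, 66.0 and 81.1 CPM in the co-treatment (−0.49, SE 0.11, adjusted p = 0.00135), and *KIF4A* at 46.0, 44.2, 43.9 and 38.9 CPM and 27.5, 27, 31.2 and 27.4 CPM (−0.61, SE 0.12, adjusted p = 1.35e-04). For the kinesin every co-treated library was lower, and so it was for *CENPE*.

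*MKI67* was at 306, 289.7, 275 and 259 CPM in bortezomib and 231, 187, 220.4 and 252 CPM in the co-treatment (−0.34, SE 0.10, adjusted p = 0.0118), and *ANLN* at 56.0, 59.5, 36.1 and 48.0 CPM (−0.37, SE 0.14, adjusted p = 0.0469). The *ANLN* libraries overlapped between the groups and those of *MKI67* did not. *MKI67* lost its call without bortezomib replicate 1 or 2 or co-treated replicate 2 (adjusted p up to 0.123), and *ANLN* without bortezomib replicate 1, 2 or 3 or co-treated replicate 3 or 4 (up to 0.259). The member that rose was *BUB3*, at 114, 129.7, 113 and 129 CPM in bortezomib and 135, 147, 173 and 165 CPM with nelfinavir added (0.35, SE 0.09, adjusted p = 0.00483), where all co-treated libraries were above all bortezomib libraries.

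Adding ISRIB to bortezomib also lowered members, in a comparison that uses the same bortezomib libraries. Here 13 were lower and 0 higher, against 5.34% and 6.91% of all genes, with a median of −0.26 for the members and 0.01 for all genes. Of the 8 hepatic markers 1 was lower and 3 were higher. Of the 13 calls 9 held under every alternative and left-out library, and 10 members were lower when only the groups compared were fitted and 12 without a filter. DESeq2 placed 0 members higher, and at an unadjusted p under 0.05 there was 1 higher, *BUB3* (0.24). The 13 were 5 of 6 genes of mitotic entry, 3 spindle microtubule proteins (*HMMR*, *ASPM*, *TPX2*), 2 checkpoint genes (*BUB1*, *BUB1B*), 2 kinetochore genes (*CENPE*, *CENPF*) and the kinesin *KIF4A*, and none was of cytokinesis or chromosome structure.

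*CCNB1* was at 73.2, 65.3, 57.1 and 75 CPM with ISRIB added (−0.66, SE 0.11, adjusted p = 7.19e-05) and *BUB1B* at 26.7, 23, 17.1 and 20.0 CPM (−0.83, SE 0.15, adjusted p = 2.10e-04). *CENPF* was at 377, 407, 384 and 337 CPM in bortezomib and 267, 277, 298 and 243 CPM in the co-treatment (−0.47, SE 0.09, adjusted p = 2.15e-04). All 4 co-treated libraries were below the bortezomib libraries for these 3 genes, as they were for *HMMR*, at 38.3, 33.5, 33.3 and 37.5 CPM (−0.68, SE 0.13, adjusted p = 5.14e-04). *KIF4A* was at 37.8, 38.5, 27.6 and 30.4 CPM, below the bortezomib libraries as well, but its call (−0.36, SE 0.12, adjusted p = 0.0334) was lost without bortezomib replicate 1, 2 or 3 or co-treated replicate 3 or 4 (adjusted p up to 0.129). That of *BUB1* was lost without bortezomib replicate 1 or 2 or co-treated replicate 3 or 4 (up to 0.138), and that of *ASPM* without co-treated replicate 4 (0.088). With only the groups compared, the calls of *CDK1* (adjusted p = 0.0671), *BUB1* (0.104) and *KIF4A* (0.152) were lost, and without a filter that of *KIF4A*.

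Whether an addition acted differently with bortezomib than without it was tested by interaction terms. For nelfinavir 1 member was lower and 6 were higher, against 10% and 9.74% of all genes. Read against these shares, few members were lower and the number higher was not far from the background. The condensin genes *SMC2*, *SMC4* and *NCAPH* were 3 of the 6. *SMC2* was lower with nelfinavir alone (−0.74, SE 0.09) and was at 134, 125, 122 and 120.4 CPM in bortezomib and 163, 140.1, 139 and 127 CPM with nelfinavir added (0.18, SE 0.09), a difference of 0.93 (SE 0.13, adjusted p = 3.15e-06). *SMC4* had a difference of 0.73 (SE 0.13, adjusted p = 1.53e-04) and *NCAPH* of 1.09 (SE 0.24, adjusted p = 0.00118). In all 3 the value without bortezomib was a fall and the value with it did not pass the test.

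*ANLN* had a difference of 0.77 (SE 0.19, adjusted p = 0.00447), from −1.13 without bortezomib to −0.37 with it, and *KIF20B* of 0.48 (SE 0.12, adjusted p = 0.00358), from −0.65 to −0.17. For *KIF20B* the co-treated libraries were at 167, 171, 152 and 154 CPM and those with bortezomib at 161, 195, 183 and 185 CPM, which overlapped. *BUB3* was at 137, 129.5, 139 and 136 CPM in DMSO and 133, 119, 153 and 127 CPM in nelfinavir, overlapping groups, and its difference of 0.38 (SE 0.13, adjusted p = 0.0377) was lost in 8 of 16 fits that left a library out (adjusted p up to 0.0891). Those were the fits without DMSO replicate 1, 3 or 4, nelfinavir replicate 1, 2 or 4, or replicate 3 of bortezomib or of the co-treatment. *CCNB1* went the other way, since nelfinavir lowered it by 22.9% alone, to 104, 108, 101 and 106 CPM from 131, 127, 144 and 142 CPM, and by 44.6% with bortezomib. Its difference of −0.48 (SE 0.15, adjusted p = 0.024) was lost in 5 of 16 such fits (up to 0.0953), those without DMSO replicate 2, bortezomib replicate 2 or 3 or co-treated replicate 3 or 4.

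For ISRIB 3 members were lower and 0 higher in the interaction, against 1.89% and 2.93% of all genes, and the 3 were *CCNB1*, *CCNB2* and *CDK1*, the subunits of the kinase of mitotic entry. DESeq2 and unadjusted p-values placed 0 members higher, and 5 were lower without bortezomib replicate 1. *CCNB2* was at 67.2, 66.6, 67.0 and 70.8 CPM in DMSO, 73.4, 70.9, 82.9 and 63.9 CPM in ISRIB, 47.7, 42.5, 50.3 and 43.4 CPM in bortezomib and 28.7, 25.1, 30.1 and 31.1 CPM in the co-treatment. ISRIB alone left overlapping values (0.10, 95% interval −0.11 to 0.31), and with bortezomib it lowered *CCNB2* by 37.5%, with an interaction of −0.78 (SE 0.15, adjusted p = 0.00162). *CCNB1* gave 0.07 without and −0.66 with bortezomib (interaction −0.73, SE 0.15, adjusted p = 0.00257). *CDK1* gave 0.13 and −0.50 (interaction −0.62, SE 0.17, adjusted p = 0.0299), and was lost in 8 of 16 fits that left a library out (adjusted p up to 0.0739), namely without DMSO replicate 3 or 4, ISRIB replicate 2 or 4, bortezomib replicate 3 or 4 or co-treated replicate 1 or 2.

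**Figure D4:**
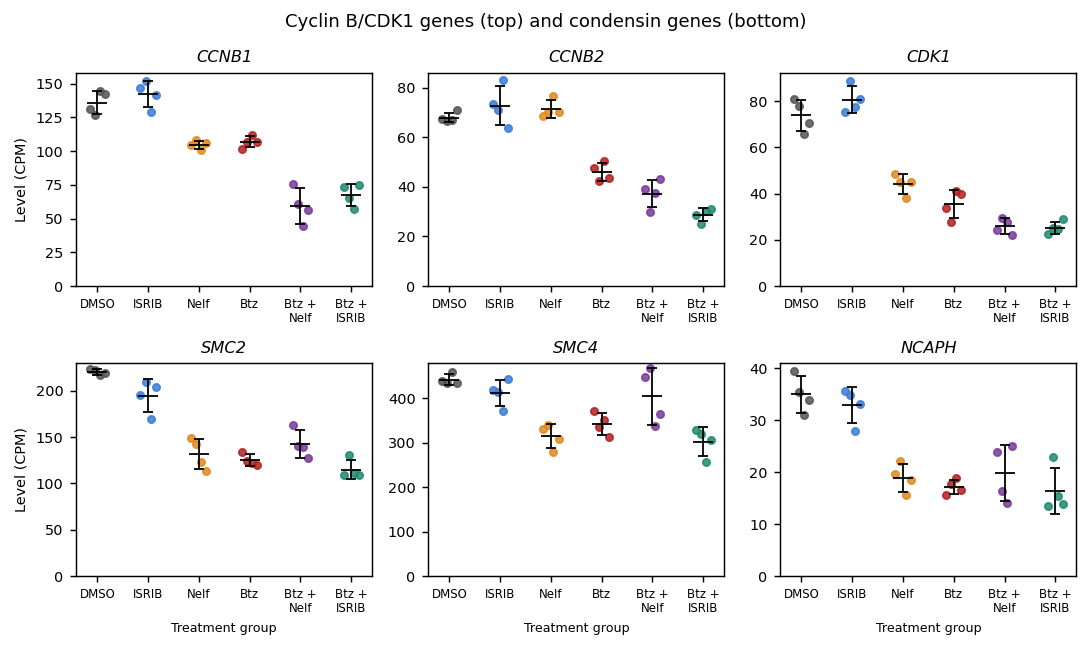
Levels (CPM) of *CCNB1*, *CCNB2* and *CDK1* (top) and of the condensin genes *SMC2*, *SMC4* and *NCAPH* (bottom) in the 6 groups, with a point per library and bars for the mean ± SD of 4 libraries. *CCNB2* lies at 72.8 CPM in ISRIB and 28.8 CPM in bortezomib with ISRIB, and *SMC2* at 132 CPM in nelfinavir and 142 CPM in bortezomib with nelfinavir.

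Further genes of mitosis fell more often than they rose with bortezomib. Of 100 further genes of the kinetochore, the anaphase-promoting complex, the spindle, centrosome and cytokinesis, and of condensin and cohesin, 98 were tested. With bortezomib 49 fell and 10 rose (median −0.41), beside 25.8% and 27.6% of all genes, where library totals alone gave 79 lower and 0 higher. With nelfinavir 41 fell and 1 rose (median −0.37), beside 8.84% and 10.4% of all genes. These comparisons share the DMSO libraries. The spindle, centrosome and cytokinesis list had 19 of 32 lower and 1 higher with bortezomib, among them *GTSE1* (−1.18, SE 0.10), which binds microtubule tips, and the spindle motor *KIF15* (−1.33, SE 0.15). In the kinetochore and centromere list 17 of 34 fell and 3 rose, including *CASC5* (−1.13, SE 0.13), the KNL1 scaffold on which BUB1 and BUB3 sit, and *SKA2* (−0.92, SE 0.10). The anaphase-promoting complex list had 9 of 19 lower and 3 higher. Its ubiquitin-conjugating enzyme *UBE2C* (−1.27, SE 0.15) and its inhibitor *FBXO5* (−1.64, SE 0.19) fell. In the condensin and cohesin list 4 of 13 were lower and 3 higher, near the 25.8% and 27.6% of all genes, with the cohesin subunit *SMC3* at −0.57 (SE 0.09) and the cohesin release factor *WAPAL* at 0.70 (SE 0.10). In these 98 genes nelfinavir added to bortezomib lowered 18 and raised 8, beside 13.4% and 15.6% of all genes. ISRIB added to bortezomib lowered 9 and raised 3 of them, beside 5.34% and 6.91% of all genes.

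The spread between replicates bears on these values. The median coefficient of variation of the 41 members was 5.02% in DMSO, 7.48% in ISRIB and 9.92% in nelfinavir. In the bortezomib groups it was 10.3% alone, 14.7% after addition of nelfinavir and 11.8% after addition of ISRIB. By this median the libraries of every other group varied more than those of DMSO, and nelfinavir alone was near bortezomib alone. The members also held fewer counts in those groups. Their mean count per library was 55202 in DMSO, 49453 in ISRIB and 41902 in nelfinavir. In bortezomib it was 19628 alone, 17454 with nelfinavir and 15422 with ISRIB. The part of lower counts in the spread was not tested.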

How the data were processed

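QuantSeq 3′ libraries of HepG2 cells (6 groups of 4) were read as 80 bp single ends. The authors trimmed reads with cutadapt 2.8 and mapped them against hg19, using STAR within an nf-core pipeline. They deposited raw counts per Ensembl GRCh37 gene, for which neither the strand option of the counting nor UMIs were stated in the sources used here. The columns of all 24 libraries were used, leaving 0 unused.

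From these counts, 12685 of 18915 genes were kept (filterByExpr, minimum count 5, minimum total 25), scaled by TMM and fitted with edgeR 4.0.16 in R 4.3.3 (quasi-likelihood test, 24 libraries, a coefficient per group, Benjamini-Hochberg adjusted p under 0.05). Interactions were differences between log2 fold changes. The fitting code was tested on simulated data. Standard errors were taken from the log2 fold change and F statistic, and CPM are TMM-scaled. Total counts of 5154533 to 6943164 per library set the precision, and *TTK* was the member with the fewest counts. Values in every library are given for the called member with the smallest p of each role and comparison and for members called against the majority, and from other lists at most 4 genes by the smallest p are named. *KIF20A*, *NDC80*, *PRC1* and other members beyond this rule are given by their folds. The members and lists were chosen with earlier results of these data known, and the HepG2, leukocyte, fibroblast and endothelial markers served as a check of the cell type.

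Gene positions are from GENCODE v44 on GRCh37, and promoters from RefSeq on GRCh38.p14. Near copies of the last 500 bases were sought with BLAST 2.17.0 (80 bases, 97% identity), and gene models that share a 3′ end are named beside the values. Alternatives were other scalings, DESeq2 1.42.0, other filters, the replicate block, only the groups compared and leaving out each library. Replicates differed beyond sampling noise (lowest chi-square per degree of freedom 2.14), so none was merged.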

Additional observations from a re-analysis of the deposited data

Results flagged for a closer look

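In 12 of 246 groups of 4 CPM values of a member, a library stood apart by Dixon's criterion at the 95% level, and chance gives about 5% of such groups. These were *CCNA2* at 22.1 CPM in bortezomib with ISRIB replicate 3 (others 26.9 to 27.9), *CCNB2* at 70.8 CPM in DMSO replicate 4 (66.6 to 67.2), *PLK1* at 222 CPM in ISRIB replicate 3 (139 to 147) and *KIF11* at 8.84 CPM in bortezomib with ISRIB replicate 3 (16 to 17.4). *KIF14* stood apart in 2 groups, at 37.6 CPM in DMSO replicate 2 (44.4 to 45.3) and 27.8 CPM in bortezomib with ISRIB replicate 1 (30.6 to 31.0). The others were *KIF23* at 24.7 CPM in bortezomib with ISRIB replicate 4 (18.0 to 18.9), *KIF4A* at 31.2 CPM in bortezomib with nelfinavir replicate 3 (27 to 27.5), *TPX2* at 282 CPM in ISRIB replicate 4 (258 to 261) and *SMC2* at 130.3 CPM in bortezomib with ISRIB replicate 2 (109 to 111). *NUSAP1* was low at 89.4 CPM in ISRIB replicate 3 (99.7 to 99.9) and at 58.0 CPM in bortezomib with nelfinavir replicate 4 (70.1 to 71.3).

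The effect of an added compound differed between cells with and without bortezomib, by edgeR's interaction term, for 7 members with nelfinavir and 3 with ISRIB. Over all genes 10% were lower and 9.74% higher in the interaction with nelfinavir, and 1.89% and 2.93% in that with ISRIB. The 7 members with nelfinavir thus did not exceed the share of all genes. For nelfinavir the differences in log2 fold change were −0.48 (*CCNB1*), 0.38 (*BUB3*), 0.48 (*KIF20B*), 0.77 (*ANLN*), 0.93 (*SMC2*), 0.73 (*SMC4*) and 1.09 (*NCAPH*). For ISRIB they were −0.73 (*CCNB1*), −0.78 (*CCNB2*) and −0.62 (*CDK1*).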

How the results depend on the processing

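Scaling moved bortezomib comparisons most. The median of the members for bortezomib against DMSO was −0.74 (RLE), −0.78 (upper quartile), −1.20 (library totals), −0.74 (TMM without mitochondrially encoded genes), −0.74 (DESeq2) and −0.77 (no filter). Against nelfinavir, library totals gave 37 lower, 0 higher and a median of −0.67, and reversed *CCNB1* (−0.44), *KIF14* (−0.39), *KIF20B* (−0.46), *KIF23* (−0.47), *TPX2* (−0.34), *PRC1* (−0.031), *ANLN* (−0.094) and *SMC4* (−0.35). Nelfinavir against DMSO gave 28 lower by RLE and without a filter, 29 by upper quartile, library totals and DESeq2, and 34 with only the groups compared. ISRIB against DMSO gave 3 lower by DESeq2, 3 without a filter and 6 with only the groups compared. Nelfinavir added to bortezomib gave 2 higher by RLE, DESeq2, no filter and the replicate block, and 12 lower with only the groups compared. The interaction with nelfinavir had 0 lower without a filter, and that with ISRIB 5 by DESeq2 and with only the groups compared. Beyond the scalings' own construction, the cause was not tested.

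Leaving out each library in turn gave these ranges. Bortezomib had 35 to 37 lower (median −0.77 to −0.65), nelfinavir 21 to 28 (−0.45 to −0.39) and ISRIB 0 (−0.12 to −0.05). Nelfinavir added to bortezomib had 10 to 14 lower and 1 to 3 higher (−0.29 to −0.17), and ISRIB added 11 to 14 lower (−0.30 to −0.24). Bortezomib against nelfinavir had 14 to 18 lower and 2 to 3 higher (−0.26 to −0.13). The interaction with nelfinavir had 0 to 1 lower and 5 to 9 higher (0.078 to 0.23), and that with ISRIB 2 to 5 lower (−0.17 to −0.07).

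With the replicate number as a block the counts lower and higher were 36 and 0 (bortezomib), 27 and 0 (nelfinavir), 19 and 2 (nelfinavir added), 13 and 0 (ISRIB added), 17 and 3 (bortezomib against nelfinavir), 1 and 6, and 4 and 0 (interactions). Deviations correlated above 0.1 between 10 of 60 same-numbered library pairs and between 7 of 180 others. The share above 0.1 was larger among same-numbered pairs, though most of them did not pass it. No label ties the numbers to a batch. The ISRIB replicate numbers do not follow the sample numbers in their titles, as those of the other groups do. The block and these correlations may therefore pair the ISRIB libraries wrongly, which was not tested. The reported fits have no block, and any pairing of replicates is not modeled in them.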

Other observations

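Regulators around the mitotic program were measured beside the members. Of 16 entry phosphatases, inhibitors and G2 brakes, bortezomib raised 10 and lowered 3 (median 0.53), beside 27.6% and 25.8% of all genes, and with library totals alone 6 were higher and 4 lower (median 0.03). *GADD45A*, a stress-induced inhibitor of CDK1 with cyclin B, had a log2 value of 2.32 (SE 0.13, adjusted p = 3.47e-16), the 14-3-3 protein *SFN* 1.81 (SE 0.15, adjusted p = 4.49e-12), *PLK2* 1.60 (SE 0.27, adjusted p = 9.63e-06) and the CDK inhibitor *CDKN1A* 0.94 (SE 0.12, adjusted p = 3.13e-08). Nelfinavir lowered 5 of the 16 and raised 0, beside 8.84% and 10.4% of all genes, among them the phosphatase *CDC25A* (−1.09, SE 0.12, adjusted p = 1.05e-08), the checkpoint kinase *CHEK1* (−1.02, SE 0.17, adjusted p = 3.34e-05) and the CDK1-inhibiting kinases *PKMYT1* (−0.50, SE 0.12, adjusted p = 0.00324) and *WEE1* (−0.48, SE 0.15, adjusted p = 0.0176).

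Of 15 late cell cycle transcription regulators tested, bortezomib lowered 4 and raised 1 (*LIN54*), where 25.8% of all genes were lower and 27.6% higher, so that the share lower was near that of all genes. Nelfinavir lowered 5 of the 15, beside 8.84% of all genes. *FOXM1*, the activator of G2/M promoters, was at −0.92 (SE 0.13, adjusted p = 1.85e-07) on the log2 scale with bortezomib and at −0.00 (95% interval −0.24 to 0.24) with nelfinavir. *E2F8*, a repressor of cell cycle genes, fell with both agents, to log2 fold changes of −2.06 (SE 0.43) and −1.82 (SE 0.39), and its relative *E2F7* had −2.34 (SE 0.39) with nelfinavir. With library totals alone bortezomib gave 12 of the 15 lower and 0 higher.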
